A study of Homo sapiens with 6 samples.

Results

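Expression of 10 ETS transcription factors was examined in REH cells, namely ETS1, ETS2, FLI1, ERG, GABPA, ELF1, ELF2, ELK3, ETV5 and ETV7, among 19721 genes that could be named on the array. They were chosen by family, as ETS genes other than ETV6 and the SPI group, and a catalogue probe was taken for a member where its RefSeq accession mapped to that gene. All 10 genes had a probe, 11 probes in all out of 57176, with 2 for ELF1 and 1 for each other member. REH is a line of B-cell precursor acute lymphoblastic leukemia of human origin with the ETV6/RUNX1 fusion gene, and per the study it has also lost its other ETV6 allele, in both groups. The 3 control samples received a non-targeting hairpin and the 3 knockdown samples an shRNA against the fusion. Per the methods, both hairpins came from a pair designed against ETV6, of which only 1 hit the fusion transcript, both vectors carried green fluorescent protein, and GFP-positive cells were sorted after lentiviral transduction. The groups thus represent 1 cell line with 1 hairpin each, as biological triplicates per the study. RNA was hybridized in 1 color to a custom Agilent array of catalogue and lncRNA probes.

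ETS factors share a DNA-binding domain that recognizes a GGAA core, and many of them bind overlapping sets of promoters and enhancers. They differ in their partners: GABPA needs GABPB1 for transactivation, ELK3 binds next to SRF, ERG and FLI1 act with RUNX1 and GATA2 in blood progenitors, and ETV5 follows ERK signaling. ETV6, the family member that is broken in this leukemia, is a repressor, and ETV7 is its closest relative.

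Values below are normalized intensities on a variance-stabilized log2 scale (generalised log2), on which changes of dim probes are understated. A probe is said to be called where limma's Benjamini-Hochberg adjusted p was under 0.05 over all 27490 retained probes. Levels of different probes are not comparable, so comparisons are made between arrays, for a probe, for the difference of a pair of probes or for a sum over the same probes. In bulk samples, fewer cells of a type and less RNA per cell cannot be told apart. With 3 arrays against 3, an exact two-sided permutation test of 1 probe cannot go below p = 0.1. Each call rests instead on the model of limma, which borrows the spread of other probes. Median raw intensity ran from 66 to 75 per array. For ETV6 itself, 1 of 2 probes was retained and measured 7.92, 8.05 and 8.37 in control and 7.50, 7.46 and 7.29 in knockdown, a log2 change of -0.70 (SE 0.14, adjusted p = 0.0513). The groups did not overlap, although the change missed the threshold. Where this probe lies within ETV6 was not analysed here, and outside the fused portion it would not measure the fusion. Spike-in scaling gave -0.34 for it (adjusted p = 0.327). The study reports that the hairpin silenced the fusion protein in REH cells, and shows Western blot and RT-qPCR of the fusion. Those measurements are separate from the arrays and were not analysed here. Control replicates 1 and 2 lay on one row of the slide, and control replicate 3 with all knockdown arrays on the other. Of 12 B-cell precursor marker genes, 11 were retained. Only VPREB1 among them was not, and its probes were well above background on at most 1 array. The summed level of these markers, as linear normalized intensity, was 276000 to 292000 in control and 329000 to 368000 in knockdown. None of their 16 retained probes was called, but 4 were with the replicate numbers as a block, all higher in knockdown, namely those of CD22 (adjusted p = 0.0265), CD79B (0.0367) and IGLL1 (0.0379 and 0.0132). Of the other lineages' lists, called probes belonged to CSF3R (log2 fold change -1.58, adjusted p = 0.0391) and PECAM1 (3 probes). Of these, 2 had log2 fold changes of -1.13 and -1.14, while the third, which no knockdown array measured well above background, fell at least 1.6-fold. It passed the filter through the control arrays alone, where it was high. Summed levels of the monocyte or granulocyte list (4 of 6 genes with a probe) were 2040 to 3280 in control and 798 to 1340 in knockdown, with CD33 and ELANE not well above background on any array and CD14, the other retained gene, at -0.13 with overlapping groups (adjusted p = 0.68). Those of the megakaryocyte or endothelial list were 851 to 1010 and 542 to 648, with PF4 not well above background on any array, ITGA2B at -0.38 (adjusted p = 0.306) and CDH5 at 0.02 (adjusted p = 0.958). Summed levels overlapped between the groups for the T cell list (309 to 540 and 317 to 509) and the erythroid list (624 to 689 and 627 to 642). The part of these shifts in the results below was not tested.

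All 11 member probes were retained and were well above background on all 6 arrays. ELK3 was lower in knockdown and was the 1 member probe called, against 1.74% of all retained probes called in either direction, 1.28% called lower and 0.458% called higher. An unadjusted p under 0.05 was found for 3 of the 11 probes, those of ELK3, ETS1 and ETS2, and for 12.5% of all retained probes. In all, 9 of the 11 probes had a negative log2 fold change and 2 a positive one, where 50.3% of all retained probes were negative. Their median log2 fold change was -0.24, beside -0.0015 over all retained probes. Control and knockdown arrays did not overlap for 7 of the 11 probes, 6 lower and 1 higher, whereas they did not overlap for 18.9% of all retained probes (9.89% lower and 9.03% higher). This share was 19.2% among catalogue probes that, like the members, were well above background on all 6 arrays. Some of the member groups were barely apart. The lowest control and highest knockdown values were 13.241 and 13.234 for FLI1, 12.377 and 12.367 for the ELF1 lead probe, and 7.065 and 7.05 for ETV7. The median SD within groups was 0.15 over retained probes. The directions above are relative to the bulk of probes. Scaling on the spike-in probes instead moved the overall median to 0.36, and under it the log2 fold changes of ETS1, FLI1, ERG, GABPA, ELF1, ELF2 and ETV7 became positive while ELK3 stayed negative.

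**Figure D1:**
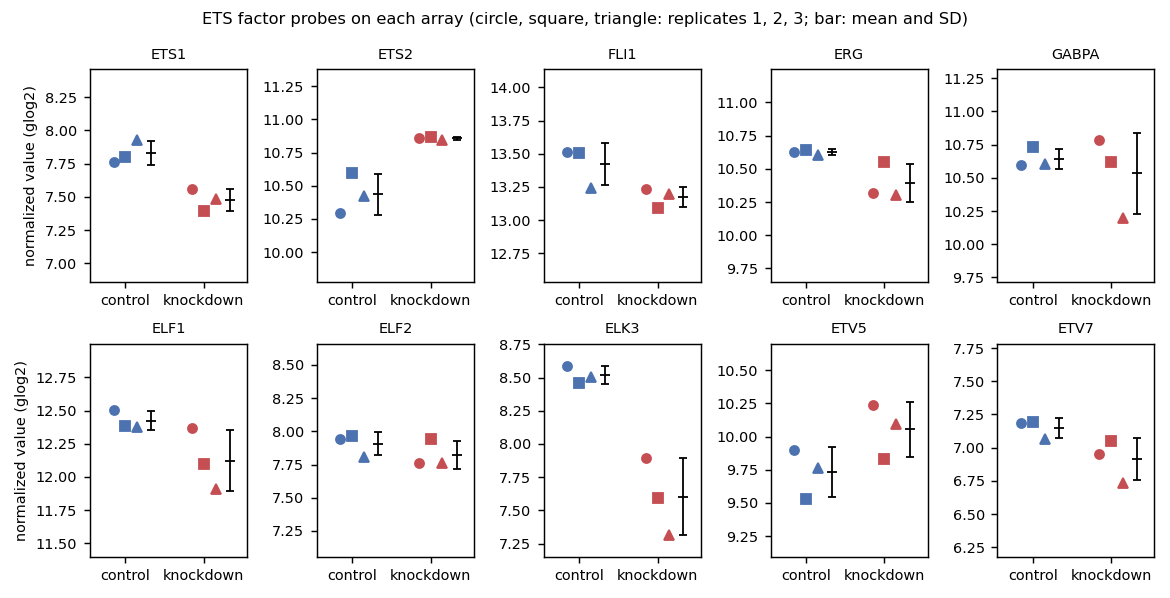
Normalized value (generalised log2, vertical axis) of the lead probe of each of the 10 ETS factors on the 3 control and 3 knockdown arrays, with each group's mean and SD at its right; the lead probe is the one with the highest mean. Each panel has its own range. For ELK3 all knockdown arrays lie at 7.90 or below and all control arrays at 8.46 or above. For ETS2 all knockdown arrays lie above the control arrays.

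ELK3, also known as Net, is a ternary complex factor that represses SRF target genes until ERK signaling phosphorylates it. Its probe A_23_P338325 measured 8.59, 8.46 and 8.51 in control and 7.90, 7.60 and 7.31 in knockdown. All 3 knockdown arrays were below all control arrays, with the lowest value in knockdown replicate 3. Means were 8.52 ± 0.07 (SD, n = 3) and 7.60 ± 0.29, a log2 fold change of -0.92 (SE 0.15, 95% interval -1.26 to -0.57) or 1.89-fold lower, with an adjusted p of 0.025. The decrease lay outside the range of -0.58 to 0.45 that held the central 95% of all retained probes. With an array left out the log2 fold change ran from -1.06 to -0.77, and the call was lost without any single array other than knockdown replicate 1, with adjusted p of 0.0687 without knockdown replicate 3, 0.0804 without control replicate 1, 0.0881 without control replicate 3, 0.102 without control replicate 2 and 0.108 without knockdown replicate 2. On the slide row that held both groups, the mean of the knockdown arrays minus control replicate 3 was -0.90. A fit with the row as a term gives this same difference, which rests on 1 control array, with an adjusted p of 0.226. Spike-in scaling gave -0.56 (adjusted p = 0.194).

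To show the sequence before the starts of the member with the largest decrease and the member with the largest increase, the 250 bases before annotated starts were read from RefSeq (GRCh38.p14), both for ELK3 and, for ETS2, the one with a RUNX-type match. Capitals mark matches on either strand to TGTGGT or TGCGGT, which are RUNX-type words, and to CCGGAAG or AGGAAG, which are ETS-type words. Coordinates are those of the printed bases.
ELK3, first start (chr12:96194125-96194374, plus strand): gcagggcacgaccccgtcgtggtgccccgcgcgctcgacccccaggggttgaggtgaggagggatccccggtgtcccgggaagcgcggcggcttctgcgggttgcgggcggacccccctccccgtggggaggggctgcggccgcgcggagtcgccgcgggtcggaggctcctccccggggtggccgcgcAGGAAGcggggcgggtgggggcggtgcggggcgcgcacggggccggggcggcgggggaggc
ELK3, second start (chr12:96255248-96255497, plus strand): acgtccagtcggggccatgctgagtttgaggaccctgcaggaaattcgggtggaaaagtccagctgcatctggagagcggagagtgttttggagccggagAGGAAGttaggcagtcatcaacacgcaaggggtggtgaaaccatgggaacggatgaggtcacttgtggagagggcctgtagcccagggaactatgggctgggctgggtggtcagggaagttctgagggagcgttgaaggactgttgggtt
ETS2, first start (chr21:38804933-38805182, plus strand): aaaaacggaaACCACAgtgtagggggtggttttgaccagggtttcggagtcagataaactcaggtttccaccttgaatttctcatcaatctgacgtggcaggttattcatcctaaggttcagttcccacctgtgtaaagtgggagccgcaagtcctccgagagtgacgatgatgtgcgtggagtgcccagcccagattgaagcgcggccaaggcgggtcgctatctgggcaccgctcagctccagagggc
Both ELK3 windows held 1 match to AGGAAG and none to the other words. The first ETS2 window held 1 match to TGTGGT, read as ACCACA on the printed strand, and its second annotated start held none. Over all 35116 promoter windows of this length, TGTGGT occurred in 11.0%, TGCGGT in 5.84%, CCGGAAG in 8.52% and AGGAAG in 28.7%. Of 6 members with an entry and 14 windows, TGTGGT was found in 1 window, TGCGGT in 1 (ELF2), CCGGAAG in 1 (GABPA) and AGGAAG in 7 windows of 5 members. The 2 ERG windows with AGGAAG overlap and share 1 match, so that these 7 windows hold 6 distinct sites. A match describes letters only, since binding was not measured in these arrays.

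Next, the other members were examined by subfamily. ETS1 and ETS2 are the founding members of the family, and ETS1 is a regulator of lymphocyte development. ETS1 measured 7.76, 7.80 and 7.93 in control and 7.56, 7.39 and 7.48 in knockdown. The groups did not overlap, yet the log2 fold change of -0.35 (SE 0.10, interval -0.58 to -0.12) was not called, with an adjusted p of 0.175. ETS2 went the other way, at 10.29, 10.60 and 10.42 in control and 10.86, 10.87 and 10.85 in knockdown. All knockdown arrays were above all control arrays and lay within a narrow range. Its log2 fold change was 0.42 (SE 0.11, interval 0.18 to 0.67), the largest positive value among the members, with an adjusted p of 0.127. With the replicate numbers as a block, adjusted p was 0.115 for ETS1 and 0.0763 for ETS2.

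FLI1 and ERG belong to the ERG subfamily, which is needed for hematopoietic stem cells and megakaryocytes. FLI1 measured 13.52, 13.51 and 13.24 in control and 13.23, 13.09 and 13.20 in knockdown. Its groups were only just separated, between control replicate 3 and knockdown replicate 1, and the log2 change was -0.25 (SE 0.11, adjusted p = 0.423). ERG measured 10.63, 10.65 and 10.61 in control and 10.32, 10.56 and 10.30 in knockdown. Knockdown replicate 2 lay near the control arrays without overlapping them, and the log2 change was -0.23 (SE 0.10, adjusted p = 0.416). The intervals were -0.51 to 0.01 for FLI1 and -0.47 to 0.01 for ERG, and spike-in scaling gave 0.11 and 0.12. With the slide row in the fit, FLI1 was at -0.07 (adjusted p = 0.978).

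GABPA is the DNA-binding subunit of GABP, an activator of nuclear genes for mitochondrial proteins. It measured 10.60, 10.73 and 10.61 in control and 10.78, 10.62 and 10.20 in knockdown. The groups overlapped, since knockdown replicate 1 was the highest of all arrays and knockdown replicate 3 the lowest. The log2 fold change was -0.11 (SE 0.15, interval -0.47 to 0.25, adjusted p = 0.822), and it was 0.06 without knockdown replicate 3. ELF1 and ELF2 belong to the ELF subfamily, whose members act in lymphoid cells among others. The lead probe of ELF1 measured 12.50, 12.38 and 12.38 in control and 12.37, 12.09 and 11.91 in knockdown, a log2 change of -0.30 (SE 0.13, adjusted p = 0.407). The second ELF1 probe, designed on another transcript, had a log2 change of -0.28 (SE 0.18, adjusted p = 0.595), and its groups overlapped through knockdown replicate 1. It was -0.49 without knockdown replicate 1 and -0.11 without knockdown replicate 3, and without the latter the lead probe was at -0.19. ELF2 measured 7.94, 7.97 and 7.81 in control and 7.76, 7.94 and 7.76 in knockdown. These groups overlapped, and the log2 fold change of -0.08 (SE 0.10, interval -0.32 to 0.15, adjusted p = 0.793) was the smallest among the members.

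ETV5 belongs to the PEA3 group, whose transcription rises with FGF and ERK signaling in many tissues. It measured 9.90, 9.53 and 9.77 in control and 10.24, 9.83 and 10.09 in knockdown. The groups overlapped, but each knockdown array was above the control array of the same number, and replicate 2 was the lowest in both groups. The log2 fold change was 0.32 (SE 0.14, interval -0.01 to 0.65), with an adjusted p of 0.413 and of 0.109 with the replicate block. ETV7, also known as TEL2, measured 7.19, 7.19 and 7.06 in control and 6.95, 7.05 and 6.74 in knockdown. Its groups were only just separated, between control replicate 3 and knockdown replicate 2. The log2 fold change was -0.24 (SE 0.11, interval -0.50 to 0.02, adjusted p = 0.449). It was -0.15 without knockdown replicate 3.

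**Figure D2:**
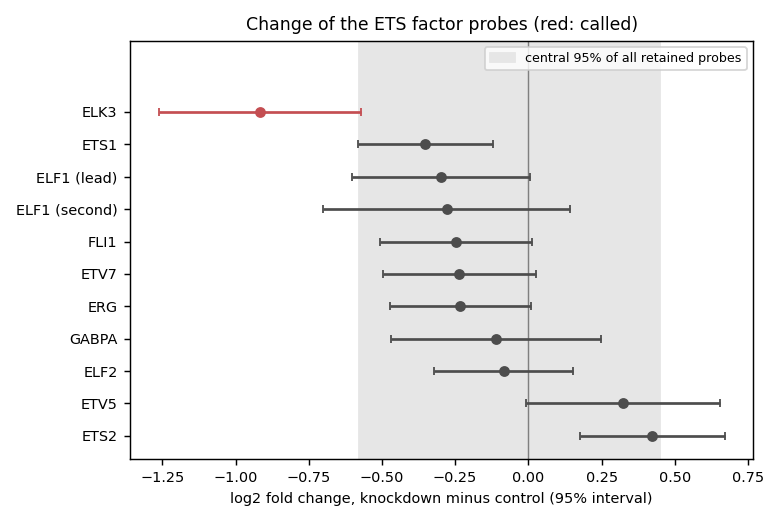
Log2 fold change (knockdown minus control, horizontal axis) of the 11 member probes with limma's 95% interval; the gray band holds the central 95% of all 27490 retained probes, and red marks the called probe. ELK3 lies at -0.92, outside the band, and the other 10 probes lie between -0.35 and 0.42, inside it. Under spike-in scaling, 8 of the 9 negative values turn positive.

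The replicate block called no member other than ELK3 (adjusted p = 0.0132), where it called 3.78% of all retained probes. No alternative setting called another member. As a description, the genes outside the family whose values followed ELK3 most closely over the 6 arrays, among 17525 named probes, were SPATA7 (Pearson's r 0.997), CHD9 (0.993) and SIX5 (0.993). Their log2 fold changes were smaller, -0.22, -0.31 and -0.22, and none of them was called.

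**Figure D3:**
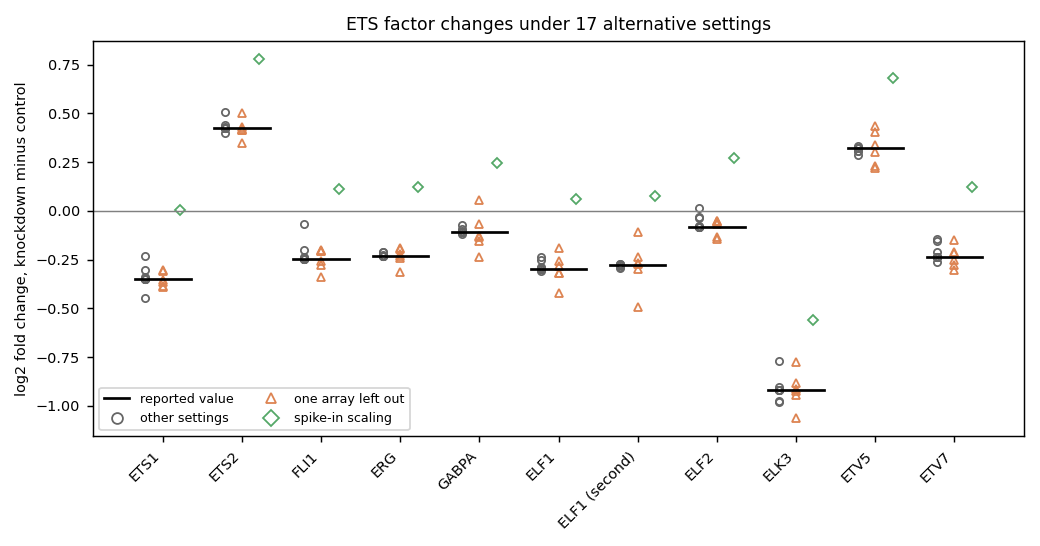
Log2 fold change (knockdown minus control, vertical axis) of each member probe as reported (black line) and under 17 alternative settings, drawn as circles for other processing and test settings, triangles for fits without 1 array and diamonds for spike-in scaling. ELK3 ranges from -1.06 to -0.56, and ETS2 from 0.35 to 0.78. Spike-in scaling moves every member upward, and 8 of the 9 negative probes to above 0.

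LncRNAs named after a member were examined next. A lncRNA probe could be named only where lists of the study name it, so other neighbors of these genes on the array were not analysed here. The study drew 1 such list from these same arrays, of lncRNAs changed in knockdown at adjusted p under 0.05. Both lnc-ELK3-1 and lnc-ERG-2 are on it, so their directions are no independent evidence. The probe of lnc-ELK3-1 measured 8.50, 8.37 and 8.03 in control and 7.34, 7.23 and 7.38 in knockdown. All knockdown arrays were below all control arrays. The log2 change was -0.98 (SE 0.14, adjusted p = 0.0121), and it was -0.71 with the slide row as a term, where the call was lost (adjusted p = 0.136). Leaving out control replicate 2 (0.0714), knockdown replicate 2 (0.0675) or knockdown replicate 3 (0.0581) also ended the call, as did spike-in scaling (-0.62, adjusted p = 0.16). The lead probe of lnc-ERG-2 measured 5.31, 6.09 and 5.64 in control and 6.39, 6.63 and 6.85 in knockdown, with control replicate 1 the lowest of all arrays. These groups did not overlap. All 8 lnc-ERG-2 probes passed the filter through the knockdown arrays alone, where they were high, and exceeded it on at most 1 control array, so that they had to differ and their number is no support. By the scanner software's flag they were well above background on all 3 knockdown arrays and on 0 to 2 control arrays. Since the control values lay near background, the fitted log2 values of 0.79 to 0.98 are no exact changes. No call was made (adjusted p 0.0782 to 0.272, and 0.00815 to 0.0392 with the replicate block). The study, in contrast, lists all 8 of these probes as changed. ERG itself, with a log2 fold change of -0.23, was not higher in knockdown. A further 3 probes, all of lnc-ELF2-2, were not retained.

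The rest of the ETS family served as a comparison. Of 14 further ETS genes with 23 probes, 9 genes and 11 probes were retained, and ELF3, ELF5, EHF, ETV3L and FEV were not well above background on any array. None of the 11 probes was called, 4 of them had an unadjusted p under 0.05, and their median log2 fold change was 0.05. ELF4, an activator in lymphocytes also known as MEF, measured 11.09, 10.96 and 10.98 in control and 11.70, 11.38 and 11.76 in knockdown. All knockdown arrays were higher, with a log2 change of 0.60 (SE 0.12, adjusted p = 0.062), and the replicate block called it (adjusted p = 0.0334). ETV4 and ETV1, the PEA3 group relatives of ETV5, had log2 fold changes of 0.44 (adjusted p = 0.384) and 0.41 (adjusted p = 0.31). Spike-in scaling gave 0.80 (adjusted p = 0.0578) and 0.76 (adjusted p = 0.0737), and with the slide row in the fit ETV4 was at 0.25. The lead probes of all 3 PEA3 genes were thus positive, and none was called. Groups overlapped for ETV4 and ETV5, and the other ETV1 probes were not well above background on any array. In the SPI group, SPIB was higher by 1.35 (adjusted p = 0.00101).

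Among 12 partner genes of ETS factors, all retained, 1 of 19 probes was called. It belonged to GABPB1, the subunit that gives GABP its activation domain. The lead probe measured 11.60, 11.79 and 11.81 in control and 10.81, 10.98 and 10.48 in knockdown, and these groups did not overlap. Its log2 change was -0.98 (SE 0.14, adjusted p = 0.0167). The second probe of the same gene, designed on another transcript, measured 9.48, 9.63 and 9.79 in control and 9.55, 9.54 and 9.68 in knockdown. These groups overlapped, with a log2 change of -0.04 (SE 0.11, adjusted p = 0.917), so that the probes of GABPB1 disagreed. The difference between both probes changed by -0.94 from control to knockdown, without overlap (exact permutation test, two-sided, p = 0.1, the smallest possible). With probes averaged by gene the log2 fold change was -0.51 and was not called (adjusted p = 0.0717). The lead probe also lost its call without control replicate 2 (0.0917) or control replicate 3 (0.0723), and when the slide row entered the fit (-1.06, adjusted p = 0.114). Spike-in scaling (-0.62, adjusted p = 0.163) and omission of the filter (adjusted p = 0.0565) ended it too. The partners had a median log2 fold change of -0.09 and none was called higher. MRTFA, a coactivator of SRF, had the largest positive value at 0.32 (adjusted p = 0.225). RUNX1, whose probes may also measure the fusion transcript, had a log2 fold change of -0.21 at its lead probe (adjusted p = 0.509), which became 0.15 under spike-in scaling.

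The heptad is a group of factors, ERG and FLI1 among them, that bind together at blood progenitor genes. Of its 5 other genes, 4 were retained and TAL1 was not. Their 8 retained probes had a median log2 fold change of -0.20, and 1 was called. GATA2, a regulator of blood progenitors, measured 6.62, 6.45 and 6.92 in control and 5.10, 5.20 and 4.55 in knockdown. Its probe was well above background on all 3 control arrays and on no knockdown array, so the change is a bound. Against the lowest level among probes well above background, GATA2 was at least 2.54-fold lower in knockdown (adjusted p = 0.00502). It passed the filter through the control arrays alone, where it was high. The size depended on the processing. The log2 change was -4.23 with processed signal, -1.36 with spike-in scaling and -0.91 with normexp and quantile, the last being smaller than this bound. LMO2, an adaptor protein of the same complex, measured 13.36, 12.84 and 12.67 in control and 12.82, 12.10 and 12.31 in knockdown. The groups overlapped, with a log2 change of -0.55 (SE 0.23, adjusted p = 0.373), and each knockdown array was below the control array of the same number. With the replicate block LMO2 was called (adjusted p = 0.0457). The change was -0.35 without control replicate 1, -0.26 when the slide row entered the fit and -0.19 under spike-in scaling, and was not called there.

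**Figure D4:**
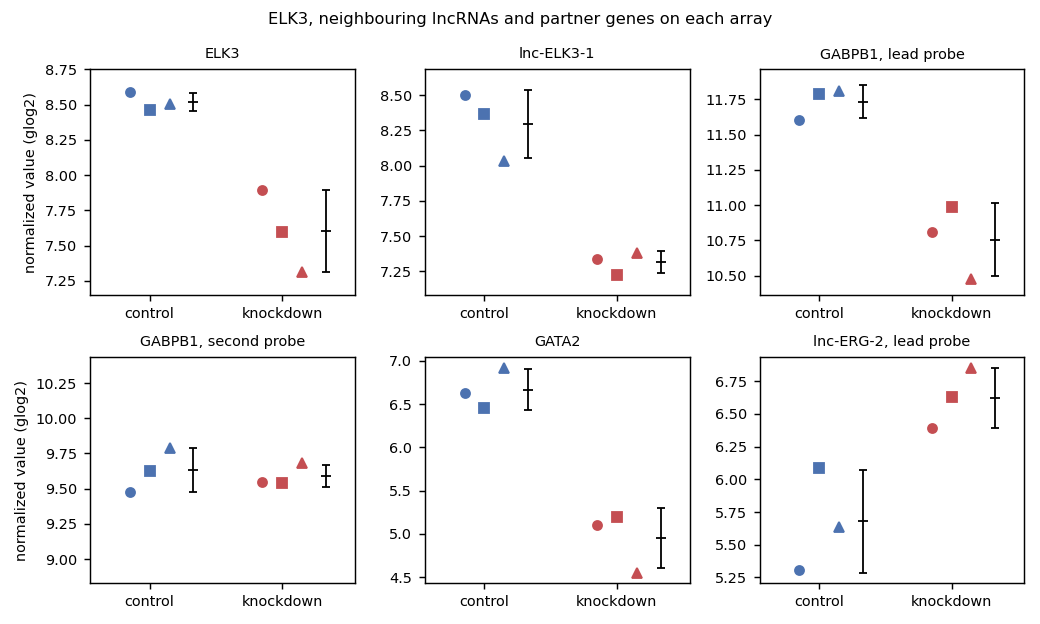
Normalized value (generalised log2, vertical axis) of ELK3, lnc-ELK3-1, both GABPB1 probes, GATA2 and the lead probe of lnc-ERG-2 on the 3 control and 3 knockdown arrays, with symbols for replicates 1, 2 and 3 (circle, square, triangle) and each group's mean and SD. Each panel has its own range, and the knockdown values of GATA2 are not well above background. Only the second GABPB1 probe has overlapping groups.

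Genes linked to ERK signaling, on which ELK3 and ETV5 depend, were described by a list of 18 genes. Of these, 17 had a probe and 13 were retained. None of 15 probes was called, 2 had an unadjusted p under 0.05, and the median log2 fold change was -0.04. EGR1, an immediate early factor and SRF target, measured 6.57, 6.72 and 6.75 in control and 5.81, 6.30 and 5.80 in knockdown. All knockdown arrays were lower, with a log2 change of -0.71 (SE 0.15, adjusted p = 0.0719). EGR1 was called with the block (adjusted p = 0.0333) and without knockdown replicate 2 (0.0296), whereas spike-in scaling gave -0.35 (adjusted p = 0.319). FOS, another SRF target, measured 7.54, 7.36 and 7.21 in control and 6.75, 6.79 and 6.93 in knockdown. Its groups did not overlap, with a log2 change of -0.55 (SE 0.12, adjusted p = 0.0747). This change was -0.38 with the slide row as a term and -0.19 under spike-in scaling (adjusted p = 0.545). SPRY2, a feedback inhibitor of ERK signaling, had a log2 fold change of -0.32 (adjusted p = 0.504), which became 0.04 under spike-in scaling. Of the 10 nuclear genes for mitochondrial function that GABP controls, all were retained and none of 13 probes was called, with 1 at an unadjusted p under 0.05. Their median log2 fold change was -0.05. COX5B, a subunit of cytochrome oxidase, had a log2 fold change of -0.30 (adjusted p = 0.354), which became 0.05 under spike-in scaling. POLRMT, the mitochondrial RNA polymerase, had one of 0.22 (adjusted p = 0.48) and UQCRC1, a subunit of respiratory complex III, one of 0.19 (adjusted p = 0.55). Under spike-in scaling these became 0.58 for POLRMT (adjusted p = 0.186) and 0.55 for UQCRC1 (adjusted p = 0.201).

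**Figure D5:**
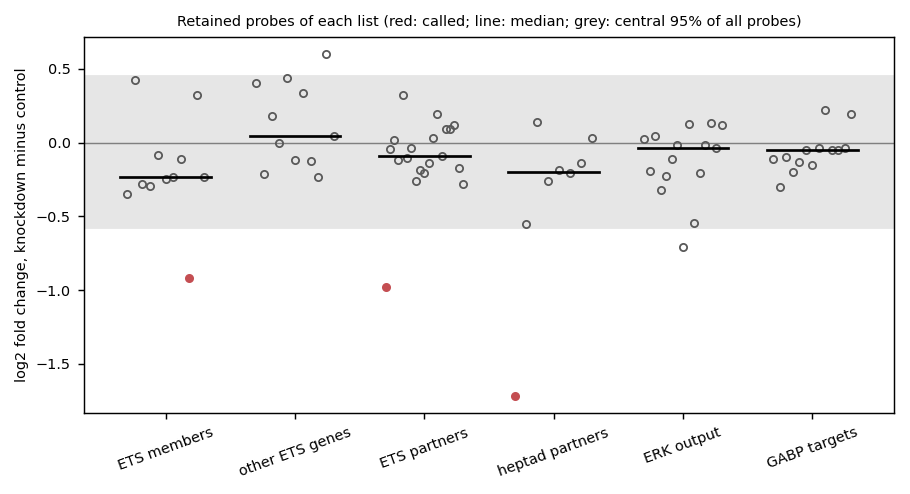
Log2 fold change (knockdown minus control, vertical axis) of every retained probe of the 10 ETS factors and of 5 comparison lists, where each circle is a probe, red marks called probes, the black line is the list's median and the gray band holds the central 95% of all retained probes. The called probes are those of ELK3 (-0.92), GABPB1 (-0.98) and GATA2 (-1.72, with knockdown values not well above background). Probes of RUNX1 stand in 2 lists. Under spike-in scaling the median of all probes shifts to 0.36.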

How the data were processed

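Agilent one-color arrays of 3 control and 3 knockdown samples of REH cells were analysed. The authors extracted spot intensity values with Feature Extraction 10.7.1.1, per the file headers, and the deposited scanner files hold raw and processed intensity, with no scaling between arrays. A normalized log2 table was also deposited by the authors, holding 27869 probes, and served as an alternative; the study's methods name VSN, background subtraction and a filter against negative controls. Groups were taken from the labels. The VSN model was fitted anew to raw median intensity, since the vsn package was not used here. Spots flagged as outliers were left out and spots of a probe averaged. On single arrays, the result correlated with the deposited log2 values at r of 0.9991 to 0.9997 across probes. Array medians over shared probes were 8.34 to 8.44 here and, over the deposited table, 8.29 to 8.37; the authors' exact steps for that table are not given in the sources used here. A probe was retained where it exceeded 1.1 times the 0.95 quantile of 308 negative control spots, on the normalized scale, on 60% or more of either group's arrays.

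Knockdown was compared with control by limma (version 3.58.1, R 4.3.3; lmFit, eBayes, two-sided, no block, Benjamini-Hochberg over retained probes). The pipeline was tested on simulated data with independent errors. These data held no pairing of samples and no slide row effect, so the test does not bear on either. Arrays with the same replicate number deviated together (r = 0.43, 0.29 and 0.20 across probes for replicates 1, 2 and 3), and for unmatched numbers r ran from -0.33 to 0.19, so that replicate 3 stood little apart. As each same-number r was over 0.1, the numbers were taken to pair the samples. Some unmatched numbers also passed 0.1, so this cut cannot show that the samples were paired. Blocked values thus rest on an assumed pairing, and are printed where they change a call. Catalogue probes were named by RefSeq accession (75.4% matched), lncRNA probes through the study's lists. The members and lists were chosen with earlier results of these data known. Every member probe was described, and from each other list the called genes or, where fewer than 3 were called, those with the largest absolute change at the lead probe (highest mean). No coordinates of probes are given, since the array design (hg19) and the gene table differ in build. Alternatives covered normalization, scaling, filter, test, block, slide row, averaging by gene and each array left out. Another reading of the filter, on raw intensity, was added after seeing the data.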

Additional observations from a re-analysis of the deposited data

How the results depend on the processing

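Across 17 alternatives, ELK3 stayed lower (log2 fold change -1.06 to -0.56) and was called in 8. It was the called member probe wherever 1 was called, and 0 member probes were called with no filter, with processed signal and the 75th percentile, with the slide row as a term and with spike-in scaling, and 0 to 1 with an array left out. ETV6 passed the threshold with the intensity trend and robust prior alone (-0.70, adjusted p = 0.0436), ranged from -0.80 to -0.57 with an array left out, and was -0.34 (adjusted p = 0.327) with spike-in scaling. With spike-in scaling, the log2 fold change turned to 0.0063 for ETS1, 0.0786 and 0.0596 for the second and lead ELF1 probes, 0.27 for ELF2, 0.11 for FLI1, 0.12 for ERG, 0.25 for GABPA, 0.12 for ETV7, 0.15 for RUNX1, 0.0382 for SPRY2 and 0.0532 for COX5B. ELF2 turned to 0.014 with the slide row as a term, and GABPA ranged from -0.24 to 0.0583 with an array left out, the latter without knockdown replicate 3. The cause was not tested.

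With the replicate block, which rests on the pairing of samples, 1 further ETS gene (ELF4), 1 ERK output gene (EGR1), 2 heptad probes, 9 lncRNA probes and 4 B-cell precursor marker probes were called, and all retained probes called rose from 478 to 1038. Among the further ETS genes, 1 probe (ELF4) was also called with the intensity trend, with normexp and quantile and with spike-in scaling. Of the ETS partners, 0 probes were called with no filter, probes averaged by gene, the slide row or spike-in scaling. Of the lncRNA probes, 0 were called with the slide row and 8, all of lnc-ERG-2 and retained through knockdown alone, with spike-in scaling. With an array left out, called probes ranged from 0 to 1 for partners and for ERK output (1 without knockdown replicate 2), and from 0 to 7 for lncRNAs. Over all probes, 224 were called with no filter, 227 with the slide row and 812 (138 lower, 674 higher) with spike-in scaling, and 191 to 553 with an array left out. Arrays limit the precision by their number, and probes near background are understated.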
